A study of Mus musculus with 6 samples.

Results

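The genes described here encode the cerebral cavernous malformation (CCM) complex, its germinal centre kinases and the kinase module that it holds in check. They were chosen by name. The list holds Pdcd10, Krit1, Ccm2, Ccm2l, Heg1, Stk24, Stk25, Stk26, Map3k3 and Map2k5, and 9 of these 10 genes had a row among the 14437 genes of the deposited table. Stk26 had no row, so its RNA level is not analysed here.

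RNA-seq libraries of cerebellar endothelial cells were compared between 3 Ccm3 knock-out and 3 wild-type libraries, all from C57BL6 mice at postnatal day 9. Ccm3 is an older name of Pdcd10. Per the labels, cells were taken with CD45 and CD31 magnetic beads and each library is named for 1 mouse. The sources used here do not state the promoter or Cre line behind the knock-out, the time of deletion or the part of the gene removed, so the cells in which it was deleted are not known from them.

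The adaptor KRIT1 (CCM1), the scaffold CCM2 and PDCD10 (CCM3) form a cytoplasmic complex that the transmembrane protein HEG1 anchors at the endothelial membrane. Loss of KRIT1, CCM2 or PDCD10 causes clusters of enlarged, leaky brain vessels. CCM2 binds the kinase MEKK3 (Map3k3), which signals through MEK5 (Map2k5) and ERK5 to the transcription factors KLF2 and KLF4, and loss of the complex in endothelium raises this signal. PDCD10 also binds and stabilises the germinal centre kinases STK24, STK25 and STK26, so a question of the comparison is whether paralogues or partners differ in RNA level where Pdcd10 is low.

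Values are normalised reads, gene counts that the authors divided by a size factor of each library. They are not corrected for gene length, and levels are set beside each other between genes only after division by exon length. The libraries held between 11075769 and 21142333 recovered gene reads. Each fold divides the knock-out by wild-type level, as fitted by limma to log2(value + 1), with its 95% interval, and "called", "rose" and "fell" mean an adjusted p (Benjamini-Hochberg over 14076 genes tested) under 0.05. Endothelial markers (8 of 8 in the table, none called) summed to between 121469.6 and 148641 in knock-out libraries and between 137475 and 155226 in wild-type libraries. The sum joins markers of opposite direction. Pecam1 was higher in every knock-out library than in any of wild-type, and Kdr, Erg and Cldn5 were lower in every one. The groups overlapped for Cdh5, Tie1, Tek and Flt1. Over all genes tested, 25.5% had no overlap between the groups. Markers of pericytes and smooth muscle summed to 40336 to 53119.5 in the knock-out and 39187 to 77543 in wild-type, and those of astrocytes to 912 to 1490 (1489.9 at the highest) and 1270.3 to 2778. Red blood cell markers summed to 5401 to 6578 in the knock-out and 9945 to 19777 in wild-type, and 4 of 6 fell. Platelet markers (3 of 6 in the table, 1 risen) summed to 111 to 320.1 and 82.4 to 92.8, those of microglia and leukocytes to 900.2 to 1015 and 858 to 1054, and those of fibroblasts to 1401 to 2539 and 1696 to 3747, in the knock-out and in wild-type. Libraries knock-out 2, knock-out 3 and wild-type 3 held reads of both Xist (9397, 7802 and 10856) and Y-linked genes (813, 1879.9 and 1816), while in each of the other libraries either Xist or the Y-linked sum was at 41.5 or less, although the labels name 1 mouse per library. Results without these libraries are given below.

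The Pdcd10 and Serpini1 genes lie head to head on chromosome 3, with 690 bases between them in GENCODE M21 (GRCm38), so the start of the targeted gene is shown with that of its neighbour. The window of Heg1 is shown because Heg1 was the most abundant member and held the most matches among members to a short motif bound by KLF factors. Each window runs from 250 bases before to 50 bases after a RefSeq start of the gene on GRCm38.p6, 5′ to 3′ on the gene's strand. RefSeq starts can differ from those of GENCODE. The Serpini1 window ends at 75557542, before its GENCODE start of 75557547, and the Stk25 window lies inside its GENCODE gene. Capitals mark CACCC or its reverse complement GGGTG.
Pdcd10 (chr3:75556803-75557102, minus strand): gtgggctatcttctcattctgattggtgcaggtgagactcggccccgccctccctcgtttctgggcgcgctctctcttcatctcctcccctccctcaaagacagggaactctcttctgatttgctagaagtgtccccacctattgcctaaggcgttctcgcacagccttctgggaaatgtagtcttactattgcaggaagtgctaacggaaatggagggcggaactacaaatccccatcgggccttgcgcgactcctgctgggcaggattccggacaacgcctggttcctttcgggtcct
Serpini1 (chr3:75557243-75557542, plus strand): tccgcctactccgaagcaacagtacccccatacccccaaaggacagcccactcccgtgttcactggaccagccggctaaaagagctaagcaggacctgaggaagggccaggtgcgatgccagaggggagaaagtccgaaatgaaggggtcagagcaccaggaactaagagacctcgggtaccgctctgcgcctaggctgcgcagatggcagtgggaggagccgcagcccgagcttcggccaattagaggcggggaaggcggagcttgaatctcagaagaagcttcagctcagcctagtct
Heg1 (chr16:33684216-33684515, plus strand): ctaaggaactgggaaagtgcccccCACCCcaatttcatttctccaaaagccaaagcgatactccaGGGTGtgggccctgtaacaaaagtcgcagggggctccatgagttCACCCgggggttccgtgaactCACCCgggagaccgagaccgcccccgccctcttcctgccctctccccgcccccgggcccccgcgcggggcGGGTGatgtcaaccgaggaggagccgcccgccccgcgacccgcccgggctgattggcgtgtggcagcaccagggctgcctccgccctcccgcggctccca
Windows were matched for 8 of the 10 members. CACCC on either strand was found in windows of 4 members, Heg1 (5 matches), Ccm2 (3), Stk26 (2) and Stk25 (1), and in 57.5% of the 32851 windows in the table. CCGGAAG, a core bound by ETS factors, or its reverse complement CTTCCGG was found for Krit1 (2 matches in each of 2 windows) and Ccm2 (1), and in 8.86% of all windows. These matches describe the letters of the windows.

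Pdcd10 (ENSMUSG00000027835, chromosome 3, 75516490 to 75556856, minus strand) had 230.1, 154 and 309 normalised reads in knock-out 1, 2 and 3, and 529, 522 and 689 in wild-type 1, 2 and 3. The highest knock-out value was under the lowest of wild-type. Pdcd10 fell to 39.7%, 26.6% and 53.2% of the wild-type mean in knock-out 1, 2 and 3 (means 231 ± 77.4 and 580.1 ± 94.3, SD, n = 3 each, fold 0.39, interval 0.26 to 0.57, adjusted p = 0.0162). The whole reads behind the knock-out values were 244, 236 and 272, so the residual signal was well above single reads. Reads over the whole gene need not reach 0 when part of a gene is removed, and in these bulk samples fewer undeleted cells and less RNA per cell cannot be told apart. Without wild-type 1, 2 or 3 the call was lost (adjusted p = 0.0511, 0.0605 and 0.0619) at log2 changes of -1.43, -1.44 and -1.24.

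Residual Pdcd10 was highest in knock-out 3 and lowest in knock-out 2. Markers of the oligodendrocyte lineage (7 of 7 in the table, none called) summed to 2588, 1272 and 4037 in knock-out 1, 2 and 3, and to 2219, 1924 and 8453 in wild-type 1, 2 and 3. Of the 10 marker sums, this was the only one that put the libraries of both groups in the order of Pdcd10, which was seen after the values were known. With that sum as a covariate, an alternative chosen after seeing the data, Pdcd10 had a log2 change of -1.21 (adjusted p = 0.00968). The covariate was chosen for sharing the order of Pdcd10, so this adjusted p adds nothing to the call. Neuron markers also had their highest sum, 2832, in knock-out 3, against 1417 and 1452 in knock-out 1 and 2. In wild-type 1, 2 and 3 they summed to 2554, 2371 and 2277, so the library with the most Pdcd10 there had the lowest neuron sum. Red blood cell markers had the order of Pdcd10 in the knock-out only, and endothelial markers had it in wild-type only. Whether reads from cells other than endothelium contribute to residual Pdcd10 was not tested.

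Of the 9 members tested, Pdcd10 alone was called (1 of 9, against 6.24% of all genes tested), none rose, and 8 were not called. All 9 passed the filter on low values. The 8 others had folds between 0.89 and 1.31, and their lowest adjusted p was 0.349. Their median absolute log2 change was 0.13, against 0.20 over all genes tested, and none had an unadjusted p under 0.05, against 19% of all genes. All genes tested were not matched to the members in read number, so these figures do not show that the members are unusually stable. Under 19 other planned settings, none of 152 values of these 8 genes was called. The lowest adjusted p among these was 0.0688, for Heg1 without knock-out 3. Settings chosen after seeing the data are not among the 19, and results of such a fit are given below for Heg1 and Krit1. Groups did not overlap for Pdcd10 and Stk25, 2 of 9 members, against 25.5% of all genes.

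**Figure D1:**
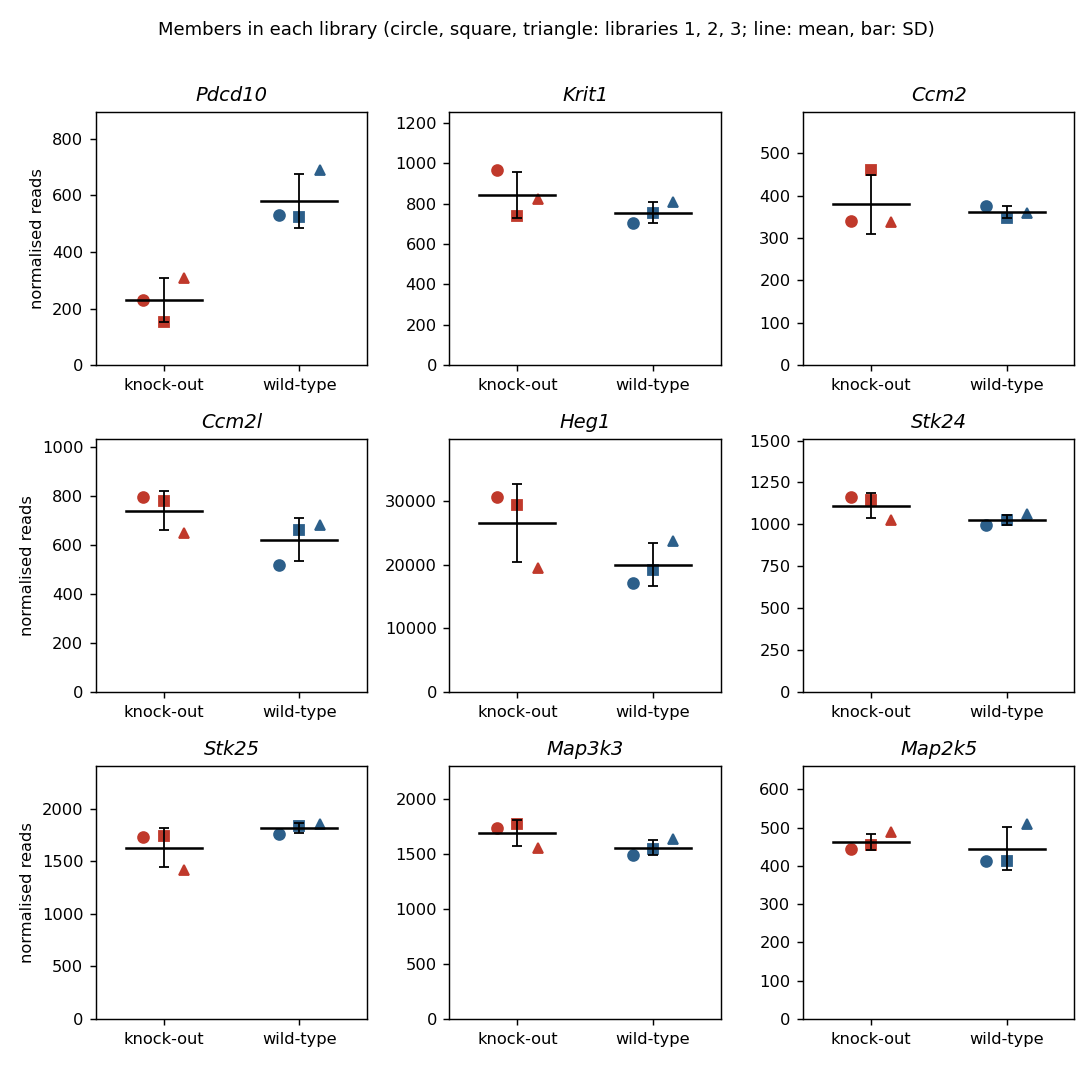
Normalised reads (y axis, from 0) of the 9 members in knock-out (left) and wild-type (right) libraries; circle, square and triangle are libraries 1, 2 and 3, lines are means and bars SD. Pdcd10 lies between 154 and 309 in the knock-out, below the wild-type range of 522 to 689, while the groups overlap in 7 of the other panels.

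Heg1 (ENSMUSG00000075254, chromosome 16, 33684370 to 33771576, plus strand), the membrane anchor whose cytoplasmic tail binds KRIT1, had 30630.0, 29406 and 19467 normalised reads in knock-out 1, 2 and 3, against 17111, 19128 and 23731 in wild-type 1, 2 and 3. Knock-out 1 and 2 lay above all wild-type libraries, and knock-out 3 lay within their range. The fold was 1.31 with an interval of 0.95 to 1.81 (adjusted p = 0.349), the widest upper bound among the 8 genes. Its exons overlap over 318 bases with Gm15657 on the opposite strand. Without knock-out 3 the log2 change was 0.60, against 0.39 with all libraries, and it was not called. Without knock-out 2, knock-out 3 and wild-type 3 together, an alternative chosen after seeing the data, Heg1 was called at a log2 change of 0.76 (adjusted p = 0.00894). That fit rests on 1 knock-out library, which is assumed to vary like the 2 wild-type libraries left.

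Krit1 (chromosome 5, 3803184 to 3845564, plus strand), the adaptor that links HEG1 and RAP1 to CCM2, had 967, 739 and 823 normalised reads in knock-out 1, 2 and 3 and 705, 756 and 809 in wild-type 1, 2 and 3. The groups overlapped, with a fold of 1.11 (0.91 to 1.35, adjusted p = 0.591). Krit1 was called only in the fit on knock-out 1, wild-type 1 and wild-type 2 (log2 change 0.41, adjusted p = 0.0372). Ccm2 (chromosome 11, 6546887 to 6596744, plus strand), the scaffold that joins KRIT1, PDCD10 and MEKK3, had 341, 460.1 and 338 reads in the knock-out and 376, 346 and 360.2 in wild-type. Knock-out 2 was above all wild-type libraries and the other 2 knock-out libraries were below them, so that the fold of 1.04 (0.83 to 1.31) averages values on either side. Without knock-out 2 the log2 change was -0.085.

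Ccm2l (ENSMUSG00000027474, chromosome 2, 153065955 to 153081735, plus strand), the endothelial paralogue of CCM2 that also binds MEKK3, had 795, 778 and 647 normalised reads in knock-out 1, 2 and 3 and 519.8, 661 and 682 in wild-type 1, 2 and 3. Knock-out 1 and 2 lay above all wild-type libraries and knock-out 3 within their range. The fold was 1.20 (0.96 to 1.49, adjusted p = 0.378), which leaves room for a rise of up to 1.49-fold. Per kb of exon, Ccm2l made up 78.0%, 72.0% and 74.4% of the sum of Ccm2l and Ccm2 in the knock-out, and 67.8%, 74.4% and 74.2% in wild-type. These shares overlapped, with a difference of 2.68 percentage points between means of 74.8% ± 3.01 and 72.1% ± 3.75. The difference was 1.09 points without knock-out 1, 4.08 points without knock-out 2 and 0.51 points without wild-type 1.

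The germinal centre kinases bound by PDCD10 showed opposite signs with small sizes. Stk24 (ENSMUSG00000063410, MST3, chromosome 14, 121286343 to 121380011, minus strand) had 1163, 1145 and 1029 normalised reads in knock-out 1, 2 and 3 against 994, 1024 and 1059 in wild-type 1, 2 and 3. Its fold was 1.08 (0.94 to 1.25, adjusted p = 0.581), and knock-out 3 lay inside the wild-type range. Stk25 (ENSMUSG00000026277, chromosome 1, 93619751 to 93658659, minus strand), a Golgi-associated kinase, had 1734, 1739 and 1421 reads in the knock-out against 1761, 1832 and 1855 in wild-type. The groups did not overlap, with the knock-out lower, as for 12.8% of all genes tested, and the fold was 0.89 (0.76 to 1.06, adjusted p = 0.477). Without knock-out 3 the log2 change of Stk25 was -0.06, against -0.16 with all libraries. The exons of Stk25 overlap those of Farp2 on the opposite strand over up to 1013 bases, and no source used here states the strand setting of the counting. Farp2 averaged 133 ± 8.29 reads in the knock-out and 154 ± 21.6 in wild-type, low beside Stk25.

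Stk24 and Stk25 were also compared within each library. Per kb of exon, Stk24 made up 42.1%, 41.7% and 44.0% of the sum of Stk24 and Stk25 in knock-out 1, 2 and 3, against 38.0%, 37.8% and 38.3% in wild-type 1, 2 and 3. The ranges did not overlap, and the means differed by 4.59 percentage points (42.6% ± 1.23 and 38.0% ± 0.25). This share does not depend on the scaling between libraries, and the difference lay between 3.90 and 5.05 points when any single library was left out. The difference is given without a test, and it sums 2 differences that were not called for either gene. Per kb of longest transcript, Stk24 made up a mean of 52.0% in the knock-out and 47.3% in wild-type. Which of the 2 kinases had the higher level in the knock-out thus depends on the length used. The summed level of both kinases was 516, 513 and 437 per kb in knock-out 1, 2 and 3, and 489, 507 and 517 per kb in wild-type 1, 2 and 3. The groups overlapped in this sum, so the data show no larger total of the 2 measured kinases in the knock-out.

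**Figure D2:**
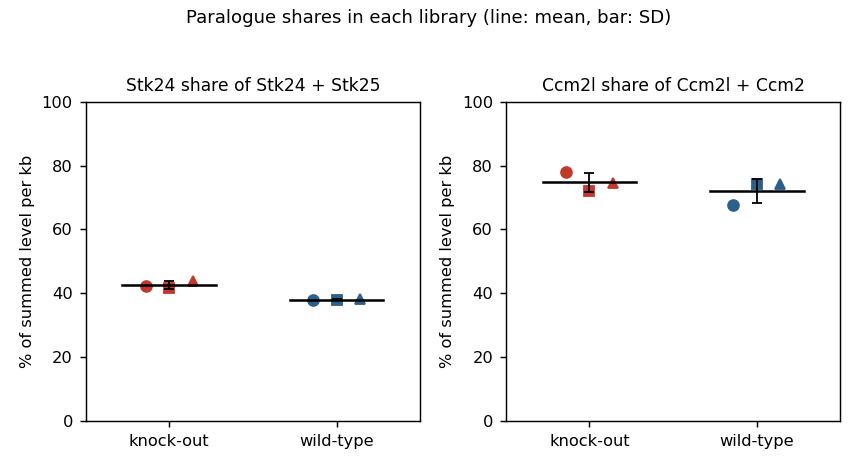
Share (percent, y axis from 0 to 100) of Stk24 in Stk24 + Stk25 and of Ccm2l in Ccm2l + Ccm2, from reads per kb of merged exons, in knock-out (left) and wild-type (right) libraries; circle, square and triangle are libraries 1, 2 and 3, lines are means and bars SD. The Stk24 shares of 41.7% to 44.0% in the knock-out lie above the 37.8% to 38.3% of wild-type, and the Ccm2l shares overlap.

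Map3k3 (ENSMUSG00000020700, chromosome 11, 106084613 to 106155446, plus strand), which encodes the kinase MEKK3 bound by CCM2, had 1739, 1773 and 1553 normalised reads in knock-out 1, 2 and 3 against 1493, 1547 and 1635 in wild-type 1, 2 and 3. Knock-out 1 and 2 were above all wild-type libraries and knock-out 3 among them, with a fold of 1.08 (0.93 to 1.25, adjusted p = 0.586). Map2k5 (chromosome 9, 63163768 to 63377902, minus strand), the kinase of ERK5, had 445, 455 and 487 reads in the knock-out, all within the wild-type values of 413, 412 and 509. Its fold was 1.04 (0.86 to 1.27, adjusted p = 0.853). The intervals of Stk24, Map3k3 and Map2k5 end at or below 1.27-fold, whereas that of Heg1 reaches 1.81-fold.

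Per kb of merged exons, Heg1 was the most abundant member, with 2082 ± 481 normalised reads per kb in the knock-out and 1571 ± 267 in wild-type, above 98.7% of all genes tested in wild-type. Map3k3 followed with 419.6 ± 29.4 per kb in the knock-out and 387 ± 17.8 in wild-type. In the knock-out the order went on with Ccm2l (307 ± 33.6), Stk25 (281 ± 31.3), Stk24 (208 ± 13.6), Map2k5 (143 ± 6.77), Ccm2 (104 ± 19.0), Pdcd10 (78.6 ± 26.3) and Krit1 (38.6 ± 5.27). Ccm2l and Stk25 overlapped in their libraries there, as did Ccm2 and Pdcd10, and no other neighbours in that order overlapped. In wild-type, Map3k3 was followed by Stk25 (312 ± 8.51), Ccm2l (258 ± 36.6), Pdcd10 (197 ± 32.1), Stk24 (192 ± 6.06), Map2k5 (137 ± 17.2), Ccm2 (98.4 ± 4.00) and Krit1 (34.6 ± 2.39). Pdcd10 overlapped with Ccm2l and with Stk24 there, and the other neighbours did not overlap. Pdcd10 was thus at rank 8 of 9 in the knock-out and at rank 5 of 9 in wild-type.

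These orders depend on the length used, most of all for Krit1, whose merged exons span 21.9 kb (21.853) while its longest transcript has 5.58 kb (5.582). Per kb of longest transcript, Krit1 had 151 ± 20.6 in the knock-out and 136 ± 9.35 in wild-type, Pdcd10 had 120 ± 40.2 (119.9) and 301 ± 48.9, and Heg1 had 3247 ± 750.2 and 2449 ± 416. By this length Pdcd10 had the lowest mean of the members in the knock-out, where its libraries overlapped with those of Krit1. It was at rank 5 in wild-type, where its libraries overlapped with those of Ccm2l. Heg1 and Map3k3 again had the highest means in both groups, but the libraries of Map3k3 overlapped with those of Stk25 in wild-type. A lower Pdcd10 makes the ratio of any partner to it higher, and Stk24 per kb of merged exons was 2.77, 4.08 and 1.83 times Pdcd10 in knock-out 1, 2 and 3 against 1.03, 1.08 and 0.84 times in wild-type 1, 2 and 3.

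**Figure D3:**
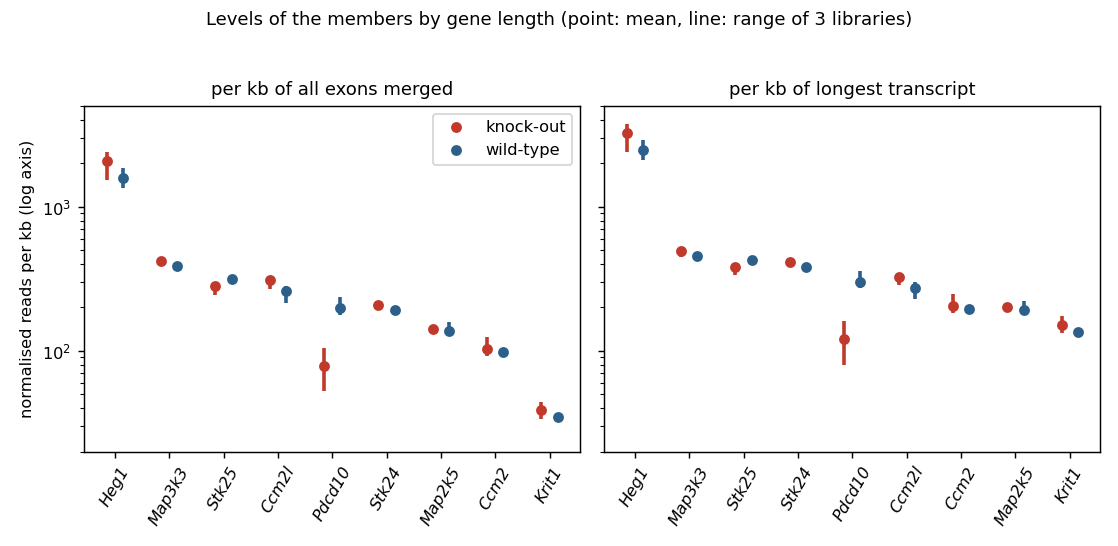
Normalised reads per kb (y axis, log scale) of the 9 members, per kb of merged exons (left panel) and of the longest transcript (right panel); points are means and lines the range of 3 libraries, with the knock-out left of wild-type. Heg1 is highest and Pdcd10 is the member whose knock-out range lies farthest below its wild-type range.

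Set beside Pdcd10 in the same library, the other members differed in their order across the knock-out libraries. Krit1, Ccm2l, Heg1 and Stk24 were highest in knock-out 1, while Ccm2, Stk25 and Map3k3 were highest in knock-out 2, the library with the least Pdcd10. The last 3 genes ran in the opposite order to Pdcd10 across the knock-out libraries, and none of the 8 did so across the wild-type libraries. Map2k5 was highest in knock-out 3, the library with the most Pdcd10. Knock-out 3 held the lowest value of 6 of the 8 members among knock-out libraries, and wild-type 3, where Pdcd10 was highest too, the highest value of 7 of the 8 among wild-type libraries. Krit1, Ccm2l, Heg1, Stk24, Stk25 and Map3k3 were all lowest in wild-type 1, and Map2k5 had the order of Pdcd10 in wild-type. Knock-out 3 also had the lowest endothelial marker sum, 121469.6, and wild-type 3 the highest, 155226, and whether this moves with the members' order was not tested. With 3 libraries per group and 2 separate groups in Pdcd10, no correlation is given.

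**Figure D4:**
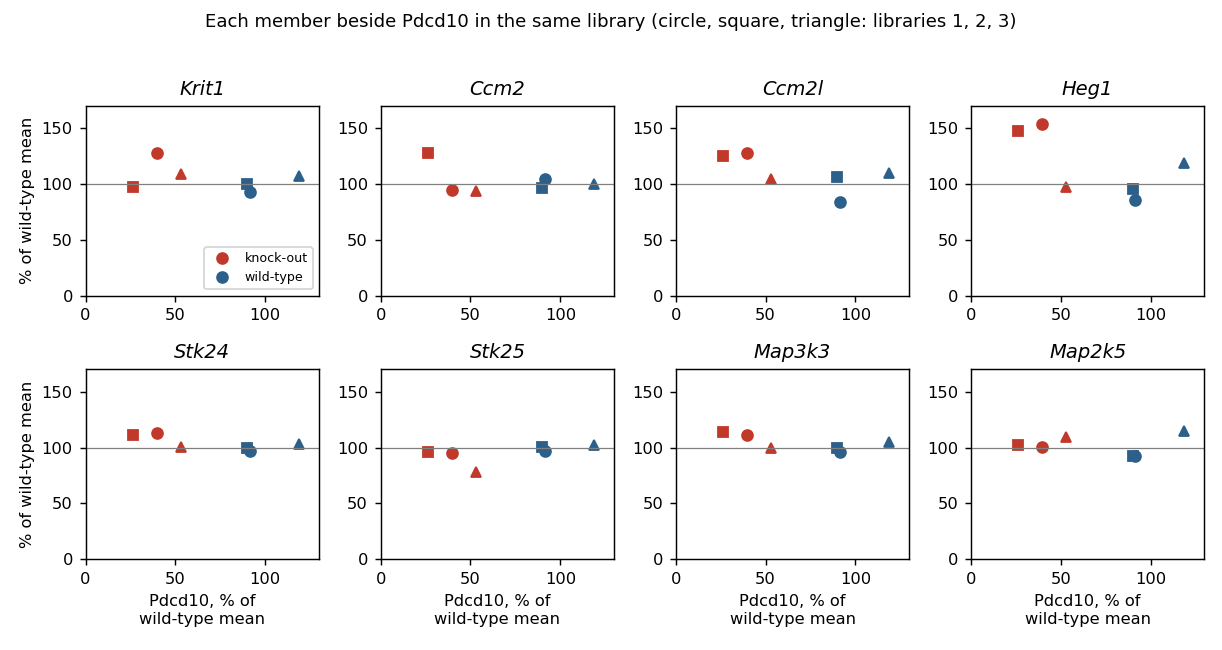
Level of each of 8 members (y axis, percent of its wild-type mean) against Pdcd10 (x axis, percent of its wild-type mean) in the same library; knock-out in red, wild-type in blue, and circle, square and triangle are libraries 1, 2 and 3. Pdcd10 lies at 26.6% to 53.2% in knock-out libraries, and Ccm2, Stk25 and Map3k3 are highest in the knock-out library with the least Pdcd10.

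The genes whose pattern over the 6 libraries was most like that of Pdcd10, among 9071 genes compared, were Rcan2 (a regulator of calcineurin), Selenop (a selenium carrier), Lmntd1, Grb14 (an adaptor of receptor kinases) and Slco1a4 (an organic anion transporter of brain endothelium). Genes with a mean under 100 normalised reads and predicted or unnamed genes were left out. Likeness was the root mean square difference of log2 values taken from each gene's wild-type mean. It was 0.12 for Rcan2 and 0.20, 0.21, 0.23 and 0.24 for the others, against a median of 1.03. The 5 genes were picked for the smallest differences, so their distance from the median was fixed by that choice. Rcan2 averaged 92.5 normalised reads in the knock-out and 211 in wild-type, and all 5 genes were lower in the knock-out, as their choice by likeness to Pdcd10 requires. None of them was on chromosome 3.

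Among genes that act with the members, those that were called all rose. Of 32 genes tested in 3 lists, 5 rose and none fell, against 3.6% risen and 2.64% fallen among all genes, and 27 were not called. The median log2 change of the 32 genes was 0.23, against -0.0067 over all genes. The lists were chosen with earlier results of these data known, and the counts describe them only.

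Of 13 binding partners and small GTPases of the complex, 2 rose. Rapgef1, an exchange factor that activates RAP1, had 3695, 3758 and 3103 normalised reads in knock-out 1, 2 and 3 against 1974, 2281 and 2316 in wild-type 1, 2 and 3, and rose 1.60-fold (1.34 to 1.92, adjusted p = 0.0109). Rock2, a RhoA effector kinase of actomyosin contraction, had 8413, 7719 and 7909 reads in the knock-out against 6104, 5724 and 5869.6 in wild-type, and rose 1.36-fold (1.18 to 1.56, adjusted p = 0.0230). Both genes had all knock-out libraries above all wild-type libraries, as did 12.8% of all genes tested. With the replicate block the adjusted p of Rock2 was 0.0669, and its call was also lost in each fit without 1 library except that without knock-out 3 (0.0507 to 0.140). It was 0.0509 with the pericyte and smooth muscle marker level as a covariate and 0.0711 with the Y-linked level. Rapgef1 was not called without wild-type 1 or 2 (0.0518 and 0.0540). Rap1a and Rap1b, the GTPases bound by KRIT1, had folds of 1.20 and 1.31 (adjusted p = 0.211 and 0.0610), and Itgb1bp1, another partner of KRIT1, had a fold of 1.32 (0.96 to 1.81). Rap1b was called with quantile scaling (0.0383), DESeq2 (0.00555) and array weights (0.0213), but not with edgeR (0.0592) or the replicate block (0.116).

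Of 7 further genes of the MEK5 and ERK5 cascade, 2 rose. Klf4 had 12757, 11373 and 8954 normalised reads in knock-out 1, 2 and 3 against 5635, 6386 and 5944 in wild-type 1, 2 and 3, a 1.82-fold rise (1.46 to 2.27, adjusted p = 0.0101). Mef2c, a transcription factor phosphorylated by ERK5, had 3559, 3298 and 2916 reads in the knock-out against 2519, 2313 and 2409 in wild-type, a 1.35-fold rise (1.15 to 1.58, adjusted p = 0.0432). Both had no overlap between the groups, with the knock-out higher, as for 12.8% of all genes tested. The adjusted p of Mef2c was 0.0722 with the replicate block, and between 0.0890 and 0.201 in each fit without 1 library except that without knock-out 3. With the pericyte and smooth muscle, Y-linked or oligodendrocyte lineage level as a covariate it was 0.0667, 0.106 and 0.0762. Klf4 had an adjusted p of 0.0502 without wild-type 1. Klf2 had a fold of 1.55 (1.19 to 2.01, adjusted p = 0.0676) and was called with the replicate block (0.0221) and with the pericyte and smooth muscle level (0.0327). It was also called with DESeq2 (0.00245) and array weights (0.0361), but not with edgeR (0.0629) or the Y-linked level as a covariate (0.147). The kinases of the cascade were not called, with folds of 1.11 for Map3k2 (0.91 to 1.36), the paralogue of Map3k3, and 1.13 for Mapk7 (0.88 to 1.46), which encodes ERK5.

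Of 12 kinase partners, substrates and related kinases, Ezr alone rose. Ezrin links membrane proteins to actin, and ezrin, radixin and moesin are substrates of the germinal centre kinases. Ezr had 2087, 2138 and 1463 normalised reads in knock-out 1, 2 and 3 against 970.5, 796 and 711 in wild-type 1, 2 and 3, a 2.28-fold rise (1.73 to 3.01, adjusted p = 0.00720). It was called in all 6 fits without 1 library. Its paralogues Msn and Rdx had folds of 1.34 (1.09 to 1.64, adjusted p = 0.110) and 1.08 (0.94 to 1.25, adjusted p = 0.576). Msn was called with quantile scaling (0.0206), DESeq2 (0.00902) and array weights (0.0369), but not with edgeR (0.0953) or the replicate block (0.168).

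**Figure D5:**
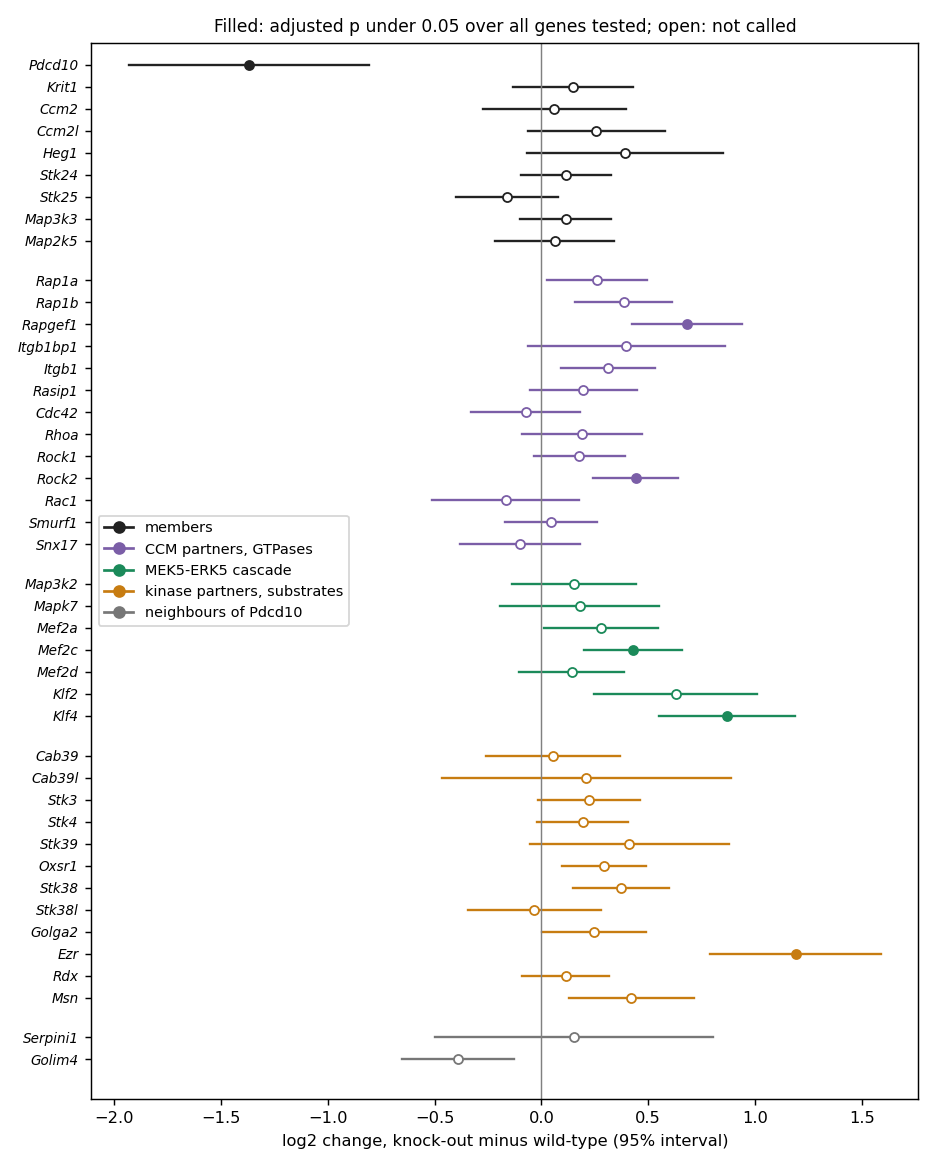
Log2 change (x axis, knock-out minus wild-type) with 95% intervals of the 9 members, 32 genes of 3 lists and 2 neighbours of Pdcd10 (rows); filled points have an adjusted p under 0.05. Pdcd10 stands alone at the left, and the filled points of Rapgef1, Rock2, Mef2c, Klf4 and Ezr lie right of 0.

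The neighbours of Pdcd10 were examined because its knock-out is on the same chromosome. Wdr49, also listed as a neighbour, had no row in the deposited table. Serpini1, which encodes the protease inhibitor neuroserpin and starts 690 bases from Pdcd10, had 83.0, 60.7 and 124 normalised reads in knock-out 1, 2 and 3 against 66.1, 74.1 and 92.1 in wild-type 1, 2 and 3. The groups overlapped, and the fold of 1.11 had an interval of 0.71 to 1.75. Golim4, a Golgi membrane protein gene further along, averaged 3052 ± 408 reads in the knock-out and 3983 ± 187 in wild-type. The groups did not overlap, with the knock-out lower, as for 12.8% of all genes tested. The fold of 0.76 was not called (0.64 to 0.91, adjusted p = 0.0953). Golim4 was called with DESeq2 (0.0285), but not with edgeR (0.104) or the replicate block (0.140).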

How the data were processed

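Total RNA of CD31 bead isolates was made into ribosome-depleted stranded libraries, per the labels' protocols. Trim Galore, STAR 2.5.3a, GRCm38 and DESeq2 are named in the submitters' processing notes, and no source used here states the read counter, annotation, filter or strand setting. The deposited values are a signal, read counts of each gene scaled by the authors with 1 size factor for a library. Within each library 100% of values were whole multiples of 1 step (tolerance 0.01 of a read), and whole reads were recovered. The edgeR count test on them called 897 genes.

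The fit used the 14076 genes that reached 10 normalised reads in 3 or more libraries. Log2(value + 1) was tested with limma 3.58.1 in R 4.3.3 (mean-variance trend, two-sided). Fold changes are on that scale, which understates low genes. edgeR 4.0.16 and DESeq2 1.42.0 were alternatives. The limma fit was also run on simulated counts. These held no differences of sex or cell makeup between libraries, so that run does not show how such differences act on the fit. Positions and exon lengths came from GENCODE M21.

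The members and lists were chosen with earlier results of these data known. Named were all members, called genes of each list (otherwise the 2 smallest p) and the 5 genes most like Pdcd10. Klf2, Mapk7, Map3k2, Rap1a, Rap1b, Itgb1bp1, Msn and Rdx were added after their values were seen.

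Replicate numbers of the titles were used as pairs only in the replicate block, an alternative fit. Deviations from group means correlated at 0.101, 0.110 and 0.192 for numbers 1, 2 and 3. Libraries of different numbers correlated about as much or more for knock-out 2 with wild-type 1 (0.295), knock-out 1 with wild-type 3 (0.109) and knock-out 3 with wild-type 2 (0.191). The remaining combinations were at -0.271, -0.341 and -0.381. These values do not establish the pairs. The reported fit has no block. Replicates differed by far more than sampling noise (chi-square per degree of freedom 13.9 to 57.4).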

Additional observations from a re-analysis of the deposited data

How the results depend on the processing

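Pdcd10 kept its direction under all alternatives run. Its log2 change lay between -1.57 and -1.21 in 14 settings that keep 6 libraries, all called, and between -1.61 and -1.11 in 6 fits without 1 library, 3 of them called. The bound of -1.21 came from the oligodendrocyte lineage level as a covariate, chosen after seeing the data. The count of genes changed, 879 in the reported fit, lay between 283 and 1032 without 1 library (467 without knock-out 2, and 399, 283 and 434 without wild-type 1, 2 and 3). It was 1373 with DESeq2 and 435 with the Y-linked level as a covariate. The count of members changed lay between 0 and 1 without 1 library. The count of listed genes changed, over the 3 pathway lists and the 2 neighbours of Pdcd10, was 5 in the reported fit. It lay between 1 and 8 without 1 library, and was 8 with quantile scaling, 12 with DESeq2 (the neighbour Golim4 among them), 9 with array weights and 3 with the Y-linked level. Without knock-out 2, knock-out 3 and wild-type 3 together, chosen after seeing the data and resting on 1 knock-out library, 2957 genes, 3 members and 16 listed genes were called. The signs of Ccm2 (-0.080), Itgb1bp1 (-0.020) and Mapk7 (-0.0100) turned there. Signs also turned for Map2k5 (-0.033) and Serpini1 (-0.060) with the pericyte level as a covariate. Log2 changes of Ccm2 lay between -0.085 and 0.14, and those of Serpini1 between -0.11 and 0.40, without 1 library. The causes were not tested. With the replicate block 769 genes changed. The block ended the calls of Rock2 and Mef2c, added Klf2 and changed no other call among the named genes. Levels per kb moved by more than the spread between libraries with the longest transcript as length in 16 of 18 cases and under no other alternative. That length also moved the paralogue shares, but the difference of the Stk24 share between the groups was 4.77 points with it and that of the Ccm2l share 3.28 points. With 3 libraries per group, the spread between libraries limits these comparisons. Every other member had 298 reads or more in each library, and the part of sampling noise in that spread was not tested.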
